A study of Mus musculus with 4 samples.

Results

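The 6 genes described are Mcm2, Mcm3, Mcm4, Mcm5, Mcm6 and Mcm7, which encode the subunits of the minichromosome maintenance (MCM) complex. They were taken by name, and all 6 were among the 4878 genes of a ribosome profiling table. Ribosome profiling reads the short RNA fragments, or footprints, that a translating ribosome shields from RNase. The cells were mouse embryonic fibroblasts at passages 5 to 8, transfected with a negative control siRNA in 2 libraries and with the siRNA Si-eIF1A (X+18) in the other 2. No genotype, strain or age was given, and both groups had been through lipid transfection. The labels do not say whether the 2 libraries of a group are separate cultures, so the spread behind each p-value may be technical.

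The MCM proteins form a ring of 6 different subunits, and all of them are required for DNA replication. Double rings are loaded onto origins in G1 by the origin recognition complex, Cdc6 and Cdt1, and in S phase each ring joins Cdc45 and the GINS complex as the helicase that unwinds DNA at the fork. Each subunit contributes to ATP sites at the interfaces between neighbours, and the subset of Mcm4, Mcm6 and Mcm7 is known for helicase activity of its own in vitro. MCM genes are classical targets of E2F transcription factors and are expressed in proliferating cells. eIF1A is a translation initiation factor on the small ribosomal subunit that acts in scanning of the leader (the 5' UTR, the part of an mRNA before the main start codon) and in start codon choice. Cell cycle genes are named in the title of the series, whose design sets control cells against cells with less eIF1A.

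Letters of the E2F type were searched in the promoters because E2F control is the best known shared feature of these genes. The words TTTCCCGC, TTTCGCGC, TTTGCCGC and TTTGGCGC were searched on both strands in RefSeq promoter windows (GRCm38.p6, from 250 bases before to 50 after the annotated start). At least 1 of them stood in the windows of 4 of the 5 subunit genes that matched the promoter table (Mcm3, Mcm5, Mcm6 and Mcm7) against 5.73% of the 3633 genes that had a window and enough coding reads to be tested, and 2.26% of all 32851 windows. Mcm2 had no match, 1 of the 2 windows of Mcm7 had none, and Mcm4 had no entry. The stretches with a match are given 5' to 3' on the strand of the gene, with the matched letters in capitals. Overlapping words were joined. Each name is followed by the distance of the first capital from the start site in bases.
Mcm6, -110, chr1:128359795-128359824, minus strand: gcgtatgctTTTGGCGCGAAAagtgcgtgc
Mcm6, -47, chr1:128359734-128359763, minus strand: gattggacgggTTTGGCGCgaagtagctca
Mcm5, -153, chr8:75109347-75109376, plus strand: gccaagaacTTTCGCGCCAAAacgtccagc
Mcm7, -165, chr5:138172030-138172059, minus strand: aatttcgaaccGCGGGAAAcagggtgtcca
Mcm7, 16, chr5:138171849-138171878, minus strand: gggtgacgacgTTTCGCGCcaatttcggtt
Mcm3, 19, chr1:20820275-20820304, minus strand: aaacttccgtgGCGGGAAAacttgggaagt
Mcm3, 38, chr1:20820263-20820285, minus strand: acttgggaagtTTTGGCGCcaag
In Mcm6 at -110 and in Mcm5, 2 words of opposite strands overlapped. The match is a description of letters and no measurement of binding. MCM genes were known E2F targets before this search, and a link of the letters to the footprint changes was not tested.

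The subunit genes lie on 5 chromosomes (GRCm38.p6): Mcm3 at chr1:20802966-20820312, Mcm6 at chr1:128331575-128359705, Mcm7 at chr5:138164583-138172111, Mcm2 at chr6:88883474-88898780, Mcm5 at chr8:75109468-75128439 and Mcm4 at chr16:15623897-15637400. The upstream end of the annotated Mcm7 span overlaps Ap4m1, on the opposite strand, by 91 bases, while the start sites of both Mcm7 promoter windows lie outside that overlap. The sources used here do not say whether counting used strand, so reads within the overlap could not be told apart. The Mcm7 span also holds the microRNA genes Mir25, Mir93 and Mir106b. Mcm4 lies 43 bases from Prkdc, which encodes the catalytic subunit of DNA-dependent protein kinase, without overlap.

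The listed genes held 280649 to 617663 reads per library, with the smallest number in knockdown replicate 2. Their leader part was 11.6% and 13.7% in the controls, and 20.0% and 32.4% in replicates 1 and 2 of the eIF1A siRNA. The unit throughout is a normalized read number, in which 1 read is worth 0.717 to 1.60 depending on the library. No value was below 1 read, so entries of 1 read may be zeros, and if 1 read was added to every value, each read number given is 1 too high. No gene for eIF1A itself was analysed here, which leaves the knockdown unchecked. Of 12 fibroblast markers, 3 were listed (Vim, S100a4 and Fn1), with a summed level of 3853 and 5504 normalized coding reads in the controls and 3454 and 2871 in the knockdown libraries, while Col1a1, Col1a2, Col3a1, Thy1 and Pdgfra were not among the listed genes. S100a4 fell (log2 -2.92, limma adjusted p = 2.4e-05), and Fn1 (-0.74) and Vim (0.38) did not pass (limma adjusted p = 0.113 and 0.481). Of 3 pericyte markers, Cspg4 and Notch3 were listed and fell, from a summed 337 and 548 to 106 and 123 normalized coding reads (limma adjusted p = 0.00113 and 0.000147). Of 3 neuronal markers, Map2 was listed and fell from 65.9 and 55.3 to 15.3 and 6.38 (limma adjusted p = 0.000648). Of 5 epithelial markers, Dsp was listed and did not pass (log2 -0.71, limma adjusted p = 0.0876). No marker of endothelial cells, leukocytes or skeletal muscle was listed. The part of these markers' changes in the results on the subunits was not tested.

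Coding footprints of all 6 subunits were lower in both knockdown libraries than in both controls, but by unequal amounts. Mcm6 fell most, Mcm4 fell next, and the falls of Mcm2, Mcm3, Mcm5 and Mcm7 did not pass the test. Footprints depend on how much of an mRNA is present as well as on how it is translated, and fewer cells of a kind and less RNA per cell cannot be told apart here. Levels are not compared between subunits, since coding lengths were not used here.

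Mcm6, which sits between Mcm2 and Mcm4 in the ring, had 590 and 591 normalized coding reads in the controls, and 207 and 179 in the knockdown libraries. The controls lay within 1 normalized read of each other and far above the knockdown pair. The mean went from 591 ± 0.540 to 193 ± 20.3 (SD, n = 2), which is 3.06 times lower (log2 -1.61 ± 0.28 SE, limma adjusted p = 0.000781). This was the 341st lowest of 4619 log2 changes.

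Mcm4, a neighbour of Mcm6 and a main target of the Dbf4-dependent kinase that starts replication, had 538 and 591 normalized coding reads in the controls and 268 and 246 in the knockdown libraries. Both knockdown values were lower than either control by more than the spread within a group. The mean went from 565 ± 37.5 to 257 ± 16.04 (SD, n = 2), which is 2.19 times lower (log2 -1.13 ± 0.28 SE, limma adjusted p = 0.00733). Mcm4 and Mcm6 lost their calls without control replicate 2 (limma adjusted p = 0.131 and 0.0708), where 0.238% of all genes passed, while their log2 changes were -1.06 and -1.61.

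The other 4 subunits moved less. Mcm2, whose tail binds histones, had 477 and 468 normalized coding reads in the controls and 362 and 295 in the knockdown libraries (log2 -0.53 ± 0.28, limma adjusted p = 0.169). Mcm3, the subunit whose C terminus recruits the loading factors, had 570 and 526 against 396 and 335 (log2 -0.59 ± 0.28, limma adjusted p = 0.129). The groups did not overlap in either gene, yet neither change passed.

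Mcm5, which forms the gate of the ring with Mcm2, had 501 and 367 normalized coding reads in the controls and 316 and 287 in the knockdown libraries (log2 -0.51 ± 0.29, limma adjusted p = 0.197). Its controls differed from each other more than control replicate 2 differed from the knockdown libraries. Mcm7, which lies beside Mcm4 and Mcm3, had 449 and 376 against 323 and 287 (log2 -0.43 ± 0.28, limma adjusted p = 0.267). In Mcm7 the nearest values of the groups (376 and 323) lay closer together than the controls did.

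Of 6 subunits tested, 2 fell, 0 rose and 4 did not pass by limma (2 at an unadjusted p under 0.05). Among all 4619 genes tested, 18.7% were called lower and 10.6% higher. Both knockdown libraries lay below both controls for 6 of 6 subunits and for 40.1% of all genes. The median log2 change was -0.56 over the subunits and -0.16 over all genes. Relative to that all-gene median, Mcm6 stood at -1.46, Mcm4 at -0.97 and the other 4 between -0.43 and -0.27. Another scaling of the libraries moved the all-gene median to between -0.25 and 0.02, and under each of those tried (TMM factors, quantile normalization, edgeR and DESeq2) all 6 subunits kept a log2 change below 0 and the calls of Mcm4 and Mcm6 stood.

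**Figure D1:**
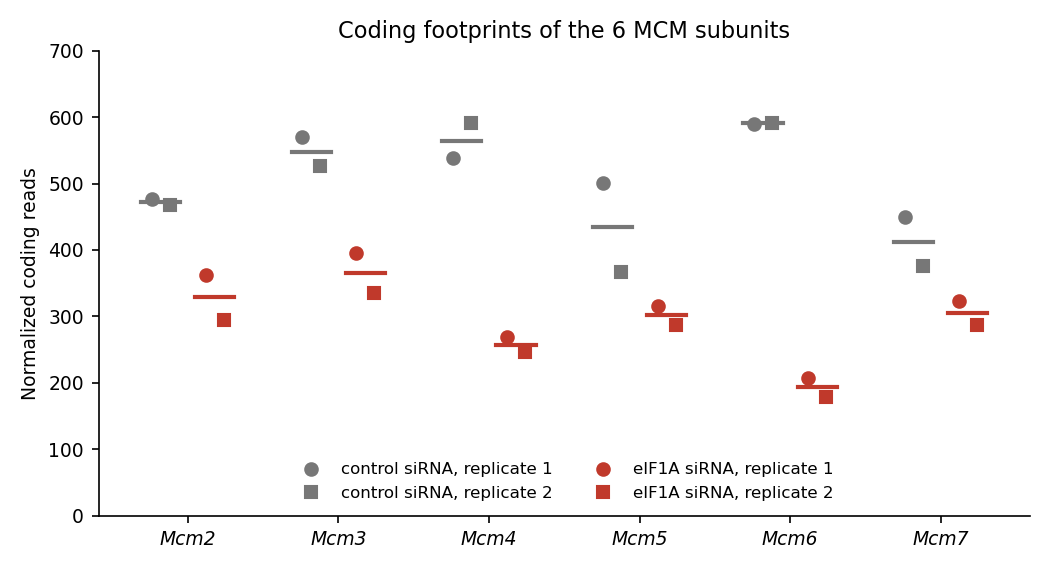
Normalized coding reads (vertical axis, from 0) of each MCM subunit in the 4 libraries, with grey symbols for control siRNA, red for eIF1A siRNA, circles for replicate 1, squares for replicate 2 and lines for the mean of 2 libraries. In every subunit the red symbols lie below the grey ones, with the widest gap in Mcm6 (591 against 193 on average). Values are not divided by coding length.

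A share of the reads of a library does not depend on the scaling between libraries. The 6 subunits together held 4362 and 3378 coding reads in the controls and 1842 and 1021 in the knockdown libraries. Of the coding reads of all listed genes this was 0.799% and 0.714% in the controls against 0.502% and 0.538%. Both knockdown libraries therefore lay below both controls. The smallest two-sided p of an exact permutation test in this design is 0.333, and such single values are therefore given without a test.

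The makeup of the complex's coding reads also differed between the groups. Mcm6 supplied 18.9% (95% exact binomial interval 17.7 to 20.1) and 20.2% (18.9 to 21.6) of the reads of the 6 subunits in the controls. In the knockdown libraries it supplied 11.1% (9.68 to 12.6) and 11.0% (9.12 to 13.05). These intervals cover counting error only, and those of the controls lie clear of those of the knockdown libraries. Mcm4 went from 17.2% and 20.2% to 14.3% and 15.1%.

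The remaining subunits took the larger part in the knockdown libraries, as they must when others take less. Mcm3 went from 18.2% and 18.0% to 21.1% and 20.6%, and Mcm2 from 15.3% and 16.0% to 19.3% and 18.1%. Mcm7 went from 14.4% and 12.9% to 17.3% and 17.6%, and Mcm5 from 16.0% and 12.6% to 16.9% and 17.6%. In no subunit did the values of the 2 groups overlap. Only in Mcm6, however, were the exact binomial intervals of the controls all clear of those of the knockdown libraries. In Mcm5 the interval of the control at 16.0% (14.9 to 17.1) overlapped that of the knockdown library at 16.9% (15.2 to 18.7). Intervals also overlapped in Mcm2, Mcm3, Mcm4 and Mcm7. The shares within a library depend on each other, so these separations are not independent results.

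Measured against the mean log2 coding value of the other 5 subunits in the same library, Mcm6 stood at 0.22 and 0.37 in the controls and at -0.67 and -0.69 in the knockdown libraries, a difference of -0.98. The same difference was -0.40 for Mcm4 and between 0.25 and 0.44 for Mcm2, Mcm3, Mcm5 and Mcm7. The 6 differences are not independent of each other and carry no test.

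**Figure D2:**
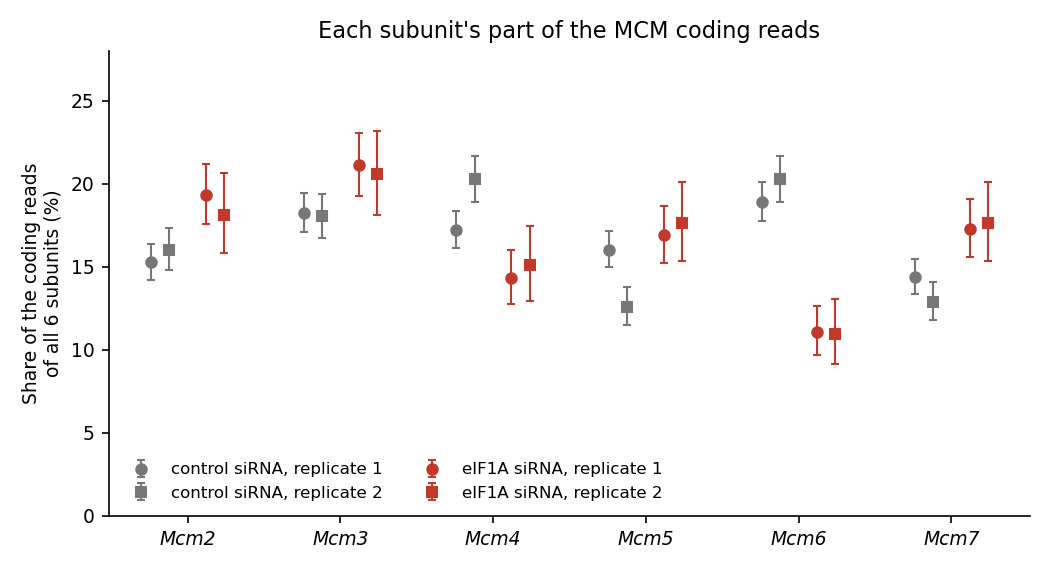
Share of the coding reads of all 6 MCM subunits that each subunit holds, in percent, for each library (grey, control siRNA; red, eIF1A siRNA; circles and squares, replicates 1 and 2), with bars for 95% exact binomial intervals of counting error. Mcm6 goes from 18.9% and 20.2% to 11.1% and 11.0%.

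The number of leader reads decided which subunits were tested. Mcm4, Mcm6 and Mcm7 had a mean of at least 10 normalized leader reads and were tested, while Mcm2, Mcm3 and Mcm5 were below that minimum and are given as values. A gene that passes only through the group where it is high had to differ, and Mcm6 had a control mean below the minimum. Its leader and its ratio are therefore given from the fit without the filter. The length of each leader was not used here, so leader reads are compared within a subunit only.

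Mcm6 gained leader reads while it lost coding reads. Its leader held 5 and 6 reads in the controls but 23 and 21 in the knockdown libraries, which is 3.58 and 5.19 against 23.4 and 33.5 normalized leader reads. The gap between the groups was wider than the spread within either of them. The mean went from 4.38 ± 1.13 to 28.5 ± 7.16 (SD, n = 2), and on the scale of log2(value + 1) the change was 2.45 (limma adjusted p = 0.00106 without the filter, where 26.8% of all genes were called in either direction and the median was 0.67). Over the 2101 genes that passed the filter the median was 1.09, and 44.0% were called higher.

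The rise of the Mcm6 leader kept its direction in all 12 alternatives and lost its call in 2. All but the fit without the filter use the filtered genes, which Mcm6 entered through its knockdown libraries. Their calls show the spread between settings and are no added support for the rise. With DESeq2, which also rescales the leader reads to each other, the log2 change was 1.55 with an adjusted p of 0.167, and without control replicate 1 it was 2.23 (limma adjusted p = 0.0723). With edgeR on the same reads it was 1.56 (adjusted p = 0.0127).

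Mcm4 had 38 and 45 leader reads in the controls and 44 and 55 in the knockdown libraries, or 27.2 and 38.9 against 44.7 and 87.8 normalized leader reads. Its log2 change was 0.93 ± 0.49 (limma adjusted p = 0.104), and the 2 knockdown libraries differed from each other by more than the group means did. Mcm7 had 30 and 35 leader reads in the controls and 38 and 34 in the knockdown libraries, or 21.5 and 30.3 against 38.6 and 54.3 normalized leader reads (log2 0.82 ± 0.50, limma adjusted p = 0.166). Both log2 changes were below the all-gene median of 1.09, and their sign turned under quantile normalization, edgeR and DESeq2, which set that median near 0. Without knockdown replicate 1 they were 1.40 and 1.06, again below the all-gene median, which was 1.42 in that fit.

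The leaders of Mcm2, Mcm3 and Mcm5 held few reads in every library. Mcm3 had 1 read in each control and in knockdown replicate 1 and 3 reads in knockdown replicate 2. Mcm2 had 1 and 2 leader reads in the controls and 3 and 7 in the knockdown libraries. Mcm5 had 5 and 9 against 1 and 7, so its groups overlapped. Without the filter Mcm2 passed (log2 1.70, limma adjusted p = 0.0408), and Mcm3 (0.93) and Mcm5 (-0.36) did not (limma adjusted p = 0.0575 and 0.723). These values rest on 1 to 9 reads, where 1 read may stand for 0.

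Over the complex, leader reads numbered 80 and 98 in the controls and 110 and 127 in the knockdown libraries, of which Mcm4 and Mcm7 supplied 68, 80, 82 and 89. This was 0.112% and 0.131% of the leader reads of all listed genes in the controls and 0.120% and 0.140% in the knockdown libraries. The groups overlapped in this share, unlike in the share of coding reads.

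The part of leader reads compares the regions within a library and needs no scaling. The tested ratio does depend on it, since 1 normalized read, worth a different number of reads in each library, was added to both regions. For Mcm6 its log2 change was 4.18 with 0.5 added and 3.41 with 5 added. Leader reads made up 0.603% (95% exact binomial interval 0.196 to 1.40) and 0.870% (0.320 to 1.88) of the Mcm6 reads in the controls. In the knockdown libraries they made up 10.1% (6.53 to 14.8) and 15.8% (10.05 to 23.1). The intervals of the groups lie far apart. With 1 leader read less in each library, the parts would be 0.483% and 0.726% against 9.73% and 15.2%. The log2 change of the Mcm6 ratio was 4.06 (limma adjusted p = 2.47e-05 without the filter, where 12.9% of all genes were called in either direction and the median was 0.99).

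Leader reads of Mcm4 made up 4.82% (3.43 to 6.55) and 6.17% (4.54 to 8.17) of its reads in the controls and 14.3% (10.6 to 18.7) and 26.3% (20.5 to 32.8) in knockdown replicates 1 and 2. The Mcm4 ratio rose by 2.06 ± 0.75 on the log2 scale (SE, limma adjusted p = 0.0395). For Mcm7 they made up 4.57% (3.10 to 6.45) and 7.45% (5.24 to 10.2) in the controls and 10.7% (7.67 to 14.4) and 15.9% (11.3 to 21.5) in the knockdown libraries. Its log2 change of 1.25 ± 0.74 did not pass (limma adjusted p = 0.202) and lay 0.02 above the median of 1.23 over the 1907 genes that passed the filter.

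Of those 1907 genes, 19.4% were called higher in the ratio. No count over the subunits is read against that share, since Mcm6 passed the filter through its knockdown libraries. Mcm6 lost its call when either control was left out (limma adjusted p = 0.262 without control replicate 1 and 0.137 without control replicate 2), with log2 changes of 3.84 and 4.27. In those fits 0.157% and 0% of all genes passed. Mcm4 lost its call in 5 of 10 alternatives, among them both of these (limma adjusted p = 0.785 and 0.5003), the fit without the filter (0.0529) and the fit without knockdown replicate 2 (log2 1.52, limma adjusted p = 0.107). The limma fits of the leader and of the ratio gave every gene the variance of the trend, so their small p-values rest on a shared variance.

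For the subunits below the minimum the leader part of all reads was at most 3.74%. In Mcm2 it was 0.150% and 0.368% in the controls and 0.836% and 3.65% in the knockdown libraries. In Mcm3 it was 0.126% and 0.164% against 0.256% and 1.41%. In Mcm5 it was 0.710% and 2.07% against 0.321% and 3.74%. Without the filter the ratio rose in Mcm2 (log2 2.23, limma adjusted p = 0.0035) and Mcm3 (1.52, limma adjusted p = 0.0189). It did not pass in Mcm5 (0.15, limma adjusted p = 0.875). Pola1, which had 1 leader read in every library and fewer coding reads in the knockdown libraries, had a ratio change of 1.56. In Pola1 the ratio thus rose with no gain of leader reads, on a coding log2 change of -1.21. For Mcm3 the coding change was -0.59, and its leader was above 1 read only in knockdown replicate 2, with 3 reads. With 1 read less the part in control replicate 2 of Mcm2 would be 0.185%, and that of all libraries of Mcm3 but knockdown replicate 2 would be 0%. Knockdown replicate 2 was the highest library in each of these 3, and it was also the library with the largest leader part over all listed genes.

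**Figure D3:**
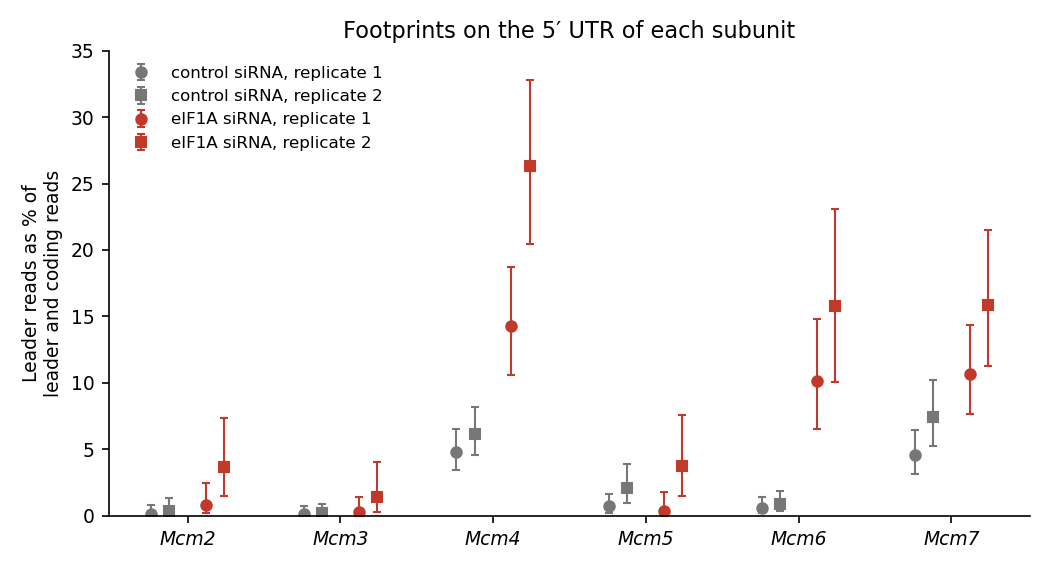
Leader reads as a percentage of the leader and coding reads of each MCM subunit, for each library (grey, control siRNA; red, eIF1A siRNA; circles and squares, replicates 1 and 2), with bars for 95% exact binomial intervals of counting error. Mcm6 goes from 0.603% and 0.870% to 10.1% and 15.8%, and Mcm2, Mcm3 and Mcm5 stay at or below 3.74%.

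Mcm10 and Mcmbp are named for the complex and are no subunits of it. Mcm10, a fork protein that helps to activate the helicase, had 56.6 and 40.6 normalized coding reads in the controls and 81.4 and 63.8 in the knockdown libraries (log2 0.58, limma adjusted p = 0.188). Mcmbp, which binds free MCM subunits and assists their assembly, had 116 and 111 against 81.4 and 52.7 (log2 -0.79, limma adjusted p = 0.0683), a fall that passed in 4 of 14 alternatives (limma adjusted p from 0.00687 to 0.0423). The leader of Mcmbp rose from 24.4 and 28.5 to 61.02 and 95.8 normalized leader reads (log2 1.50, limma adjusted p = 0.00758). Its ratio rose by 2.29 (limma adjusted p = 0.0302). The leader call was lost in 5 of 13 alternatives, among them DESeq2 (log2 0.38, adjusted p = 0.592) and either fit without a control (limma adjusted p = 0.272 and 0.140), and the ratio call in those 2 fits (limma adjusted p = 0.775 and 0.492) and 2 others.

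Among the other replication genes, coding changes went both ways. Of 53 genes on 5 lists (genes related to MCM, origin loading, helicase activation, polymerases, and clamp with maturation factors), 40 were listed and tested. Of these 3 rose, 4 fell and 33 did not pass, against 29.3% of all genes called in either direction, with a median log2 change of 0.07. Both knockdown libraries lay below both controls in 9 of the 40, against 40.1% of all genes.

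The 5 of 9 origin loading genes that were listed and tested did not pass, where 29.3% of all genes were called in either direction. All 5 tested members of the origin loading list (Orc1, Orc5, Orc6, Cdc6 and Gmnn) missed the threshold, with a median log2 change of 0.35 by limma and 0 at an unadjusted p under 0.05. Cdc6, which acts with the origin recognition complex to load MCM, had 94.6 and 86.4 normalized coding reads in the controls and 62.0 and 62.3 in the knockdown libraries (log2 -0.53, limma adjusted p = 0.186). Orc6, a subunit of that complex, had 34.4 and 25.9 against 70.2 and 22.3, so its groups overlapped.

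Of 12 tested genes of helicase activation, 1 fell, 0 rose and 11 did not pass by limma (1 at an unadjusted p under 0.05). Of all genes, 18.7% were called lower and 10.6% higher. Wdhd1, which couples the helicase to DNA polymerase alpha, fell from 150 and 190 to 71.2 and 75.02 normalized coding reads (log2 -1.20, limma adjusted p = 0.00677). Its leader rose (log2 1.90, limma adjusted p = 0.00169), and its ratio rose by 3.10 (limma adjusted p = 0.0026). The leader call was lost in 4 of 12 alternatives, among them DESeq2 (log2 0.81, adjusted p = 0.377) and the fit without control replicate 1 (limma adjusted p = 0.270), and the ratio call without control replicate 1 or 2 (limma adjusted p = 0.735 and 0.491).

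Of 10 polymerase and primase genes, 1 fell and 2 rose, near the 29.3% of all genes called in either direction. Pola1, the catalytic subunit of DNA polymerase alpha, fell from 297 and 410 to 144 and 156 normalized coding reads (log2 -1.21, limma adjusted p = 0.00619), with its leader at 1 read in every library. Pole4 (1.62) and Pole3 (1.25), the small subunits of DNA polymerase epsilon, rose (limma adjusted p = 0.00535 and 0.0405). Pole3 lost its call in 5 of 13 alternatives.

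Of 11 genes for the clamp, its loader and maturation, 2 fell and 1 rose, near the 29.3% of all genes called in either direction. Rfc1, the large subunit of the clamp loader, fell by 1.36 and Lig1, the replicative DNA ligase, fell by 1.11 on the log2 scale (limma adjusted p = 0.00491 and 0.00882). Rpa3, the small subunit of the single-strand binding protein, rose by 1.13 (limma adjusted p = 0.0258). Of 6 genes of the E2F family and its retinoblastoma partners, 1 fell, 1 rose and 4 did not pass, against the same 29.3%. Rbl1 fell by 1.54 and E2f4, which acts as a repressor with it, rose by 1.64 (limma adjusted p = 0.00156 and 0.00402). Without control replicate 2, none of the coding calls from Wdhd1 to E2f4 passed (limma adjusted p = 0.130 to 0.207), and all but those of Pola1 and Rbl1 were also lost without control replicate 1 (limma adjusted p = 0.0637 to 0.259); no direction changed.

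Subunits of other rings are set beside the MCM values to show how far members of a fixed complex differ in these libraries. The coding log2 changes of the 6 MCM subunits spanned 1.18, from -1.61 to -0.43. Those of 5 ATPases of the proteasome spanned 1.40 around a median of 0.75, with 2 of 5 called higher. Those of 8 subunits of the cytosolic chaperonin CCT spanned 1.33 around a median of 0.74, with 2 of 8 called higher, against 10.6% of all genes. The calls of Psmc4, Psmc5, Cct2 and Cct6a were lost without control replicate 2 (limma adjusted p = 0.152 to 0.287). The difference between these complexes was not tested.

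**Figure D4:**
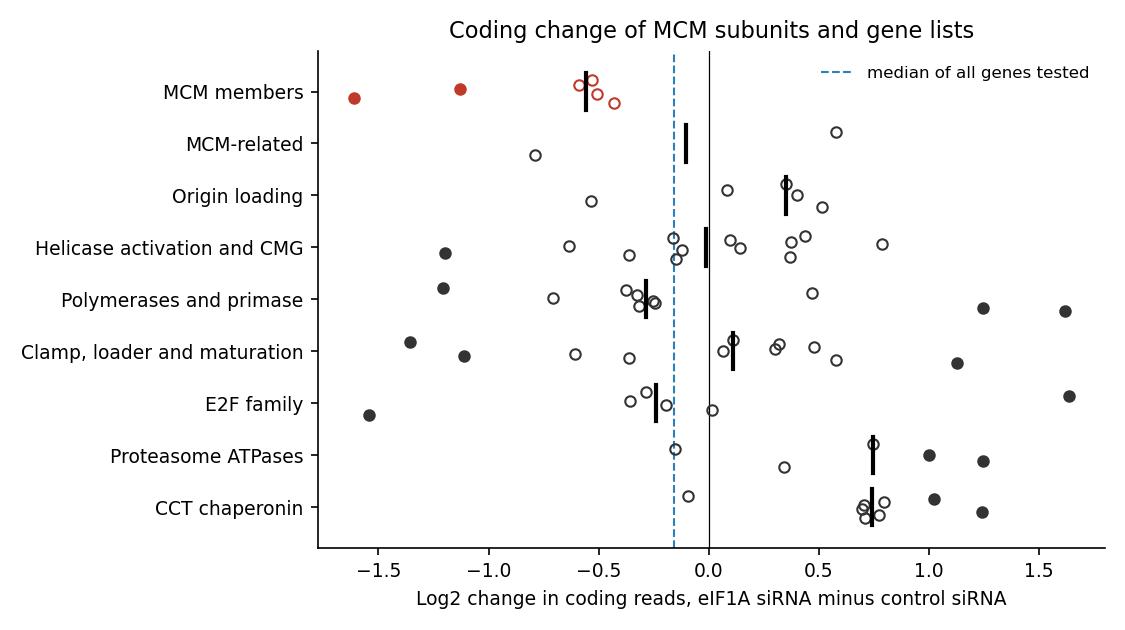
Log2 change in coding reads (eIF1A siRNA minus control siRNA) of the 6 MCM subunits (red) and of the tested members of 8 gene lists (black), with filled dots for genes past the limma threshold, black bars for each list's median and a dashed line for the median of all genes tested (-0.16). The MCM subunits lie between -1.61 and -0.43, and CCT subunits lie at a median of 0.74.

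The genes whose coding profile over the 4 libraries lay nearest to the mean profile of the 6 subunits were Prpf38b, Syncrip, Fkbp8, Dlgap5 and Rbpj, at Euclidean distances of 0.04 to 0.12 on the centred log2 scale, out of 1852 genes whose mean was at least 50 normalized coding reads. Prpf38b, for example, had 78.8 and 74.3 normalized coding reads in the controls and 46.8 and 41.5 in the knockdown libraries. The subunits themselves lay at 0.21 (Mcm3), 0.29 (Mcm2) and 0.38 (Mcm4, Mcm5 and Mcm7) from their own mean, and Mcm6 at 0.82. Of the 1852 genes, 878 were nearer to that mean than Mcm6 was. Profiles over 4 libraries of 2 groups mostly record the difference between the groups.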

How the data were processed

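The analysis used 2 control and 2 knockdown libraries, grouped by title. Tools named in the submitters' processing notes are cutadapt, Bowtie, TopHat2, HTSeq and DESeq2, with mm10 as the build and no roles or versions. The table deposited by the authors holds, per its header, a normalized signal for the 5' UTR and for the coding sequence of each gene. All values (100%) were whole multiples of 1 read, to within 0.001 reads, and were turned back into reads. The test was limma 3.58.1 (R 4.3.3, with trend) on log2(value + 1), for genes averaging at least 10, which left 4619 for coding, 2101 for leader and 1907 for the ratio. P-values were adjusted over all of them by Benjamini-Hochberg, with a threshold of 0.05. Count tests on the recovered reads with edgeR 4.0.16 (1712 coding calls) and DESeq2 1.42.0 were alternatives. The procedure was also run on simulated reads with the same dispersion for every gene and no shift common to all genes. That run does not measure error rates in these libraries. Levels per coding length were planned but not run, since no coding lengths were used here. From each list up to 4 called genes were named, or up to 2 of the highest mean, plus all listed genes related to MCM and the 5 nearest profiles. Subunits and lists were chosen with earlier results of these data known.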

Additional observations from a re-analysis of the deposited data

How the results depend on the processing

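The coding calls, 2 in the main fit (Mcm4 and Mcm6), numbered 2 or 3 of 6 under every alternative that kept all 4 libraries. Of all genes, 21.4% (DESeq2) to 42.4% (mean of at least 50) were called in either direction under those alternatives. For the leader without a filter on low values, 2 subunits were called higher (Mcm6, and Mcm2 at 1 to 7 reads). Of all genes, 26.8% were called there in either direction. With the filter 1 was called (Mcm6), and with DESeq2 0, where 46.8% and 17.4% of all genes were called. For the ratio without a filter, 3 were called (Mcm6, with Mcm2 and Mcm3 at limma adjusted p of 0.0035 and 0.0189, on few leader reads). Mcm4 was not called there (limma adjusted p = 0.0529), where 12.9% of all genes were called. With the filter 2 were called, and with 1 read less in every value 1 (Mcm4 at a limma adjusted p of 0.0502). Of all genes, 19.5% and 18.4% were called in these 2 fits. Mcm6 passed the filter through its knockdown libraries, so the counts with the filter are not read as results. The counts also changed with 1 library left out. No subunit had a mean of at least 50 in the leader, so that filter gave no value there. The leader's log2 change turned sign under quantile normalization, edgeR and DESeq2 for Mcm4 (-0.12, -0.16 and -0.20) and Mcm7 (-0.18, -0.27 and -0.31), which centre leader reads on each other. Orc6 in coding reads ranged from -0.40 (without knockdown replicate 1) to 1.21 with 1 library left out. Coding log2 changes ranged over 14 alternatives from -1.72 to -1.26 for Mcm6 and from -1.23 to -0.81 for Mcm4.

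The replicate numbers are shared between the groups but nothing ties same-numbered libraries together. Their deviations correlated across genes, which are not independent replicates, at 0.26 for coding, -0.06 for leader and 0.12 for the ratio. With the replicate block, 3 subunits passed in coding (Mcm3 besides, at a limma adjusted p of 0.04997), 2 in the leader (Mcm4 besides, at 0.0168) and 2 in the ratio. Of all genes, 41.6%, 59.9% and 44.6% passed in those fits. The leader and ratio counts used the filter, which Mcm6 passed through its knockdown libraries. Few leader reads limit Mcm2, Mcm3 and Mcm5.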
